A study of Mus musculus with 16 samples.

Results

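Mouse embryonic stem cells (mESCs) carried 259 genomic regions where H3K27me3, histone H3 trimethylated at lysine 27, was called in both Mettl14 control lists and in neither Mettl14 knockout list. The members were selected on their peak calls alone, by merging the peaks of the 4 H3K27me3 lists wherever at least 1 bp was shared, which gave 25113 regions, and keeping those with a peak in both control lists and none in the knockout lists. The 259 control-only regions are 1.03% of all regions, and this share was set by the calls that chose them. The opposite pattern, both knockout lists and no control list, held 1210 regions or 4.82%, and 879 regions were called in all 4 lists.

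The series measured 3 histone marks by chromatin immunoprecipitation and sequencing, H3K27me3, H3K4me3 and H3K27ac, in Mettl14 knockout mESCs, which the sample titles call CKO, and in Mettl14 control mESCs. Each mark had 2 knockout and 2 control libraries. All cells are labelled strain C57BL/6 and were grown with serum, LIF, CHIR99021, an inhibitor of the kinase GSK3, and PD0325901, an inhibitor of MEK, so the controls had the same medium as the knockout cells. The sources used here do not say how the knockout was made, how many clones there were or whether replicates were separate cultures, so p-values measure only the spread between these libraries, which may be technical. The 4 input libraries, and the Mettl3 knockout that the series design names, were not analysed here.

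H3K27me3 is deposited by Polycomb repressive complex 2 (PRC2), whose catalytic subunits are EZH2 and EZH1, and it is read by the CBX proteins of Polycomb repressive complex 1. In mESCs it lies mainly over CpG-rich promoters of developmental genes that are silent or little expressed in pluripotent cells, where it often occurs with H3K4me3, a mark of active or poised promoters. H3K27ac, a mark of active promoters and enhancers, occupies the same lysine and cannot be on the same histone tail residue as H3K27me3. METTL14 forms a dimer with METTL3 that writes N6-methyladenosine on RNA.

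Of the 259 regions, 20 promoters of 19 genes lay wholly inside one, each promoter being the 250 bases before and 50 after an annotated start in the RefSeq table of GRCm38.p6. Shown first are the 3 protein-coding genes whose promoter lay whole under a peak in both control lists. They were put first after their calls were seen, and Rps6ka4 is not among the genes named by the rule. Sequences run 5′ to 3′ on the strand of the gene, with every CG dinucleotide in capitals, because CpG density is a feature that Polycomb targets are known for. Gja3 encodes a lens gap-junction connexin, Rps6ka4 a kinase downstream of MAP kinases, and Zfp804a a zinc-finger protein. All 300 bases of these 3 promoters lay under a peak in each control list and under no knockout peak. Gja3 is shown from chr14:57057981-57058280, minus strand, with 29 CG. Rps6ka4 is shown from chr19:6840578-6840877, minus strand, with 26 CG. Zfp804a is shown from chr2:82053408-82053707, plus strand, with 45 CG, a number that 1.93% of all promoters in the table reached.
Gja3: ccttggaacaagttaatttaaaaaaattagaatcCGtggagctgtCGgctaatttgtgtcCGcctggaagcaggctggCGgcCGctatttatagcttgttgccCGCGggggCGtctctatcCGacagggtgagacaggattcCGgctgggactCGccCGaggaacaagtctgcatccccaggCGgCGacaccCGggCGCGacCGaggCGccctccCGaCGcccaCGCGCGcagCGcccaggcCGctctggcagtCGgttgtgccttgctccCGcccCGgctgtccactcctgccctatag
Rps6ka4: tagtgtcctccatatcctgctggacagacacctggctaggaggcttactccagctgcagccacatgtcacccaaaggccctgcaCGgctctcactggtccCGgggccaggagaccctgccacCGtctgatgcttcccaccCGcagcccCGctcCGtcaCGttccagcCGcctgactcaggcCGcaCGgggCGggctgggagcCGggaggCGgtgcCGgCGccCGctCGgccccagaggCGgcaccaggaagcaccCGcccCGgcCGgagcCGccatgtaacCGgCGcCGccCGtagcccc
Zfp804a: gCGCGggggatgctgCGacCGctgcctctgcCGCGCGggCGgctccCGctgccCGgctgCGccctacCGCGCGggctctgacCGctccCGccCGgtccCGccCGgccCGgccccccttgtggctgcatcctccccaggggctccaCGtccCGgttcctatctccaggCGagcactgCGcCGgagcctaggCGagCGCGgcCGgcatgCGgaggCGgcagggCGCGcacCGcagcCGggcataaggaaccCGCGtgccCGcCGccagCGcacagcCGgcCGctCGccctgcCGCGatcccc

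The promoters in the widest control-only regions at gene ends were different in that 1 control list alone had a peak over them, the other control peak of the region lying beside the promoter. Tdrd5, which encodes a Tudor-domain protein of male germ cells, is shown from chr1:156303299-156303598, minus strand. Its 300 bases lay under a peak of control replicate 2 and under none of replicate 1, and it held 48 CG at a CpG observed over expected ratio of 1.11. Tmem114, a transmembrane protein gene, is shown from chr16:8425087-8425386, minus strand, and Tmod1, which encodes an actin-capping tropomodulin, from chr4:46038972-46039271, plus strand. Both lay under peaks of control replicate 1 alone, with 10 CG and 25 CG. For contrast, the promoter of Gfra1, a receptor subunit for glial cell line-derived neurotrophic factor, is shown from chr19:58455349-58455648, minus strand, with 12 CG. All 300 of its bases lay under a peak in each knockout list and under no control peak.
Tdrd5: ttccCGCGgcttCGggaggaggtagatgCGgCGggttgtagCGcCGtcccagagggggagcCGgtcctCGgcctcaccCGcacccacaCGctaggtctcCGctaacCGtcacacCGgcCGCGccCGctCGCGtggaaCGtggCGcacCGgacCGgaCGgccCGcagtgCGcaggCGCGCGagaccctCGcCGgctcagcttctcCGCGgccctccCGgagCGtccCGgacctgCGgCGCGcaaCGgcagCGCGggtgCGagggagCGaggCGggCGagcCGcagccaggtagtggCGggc
Tmem114: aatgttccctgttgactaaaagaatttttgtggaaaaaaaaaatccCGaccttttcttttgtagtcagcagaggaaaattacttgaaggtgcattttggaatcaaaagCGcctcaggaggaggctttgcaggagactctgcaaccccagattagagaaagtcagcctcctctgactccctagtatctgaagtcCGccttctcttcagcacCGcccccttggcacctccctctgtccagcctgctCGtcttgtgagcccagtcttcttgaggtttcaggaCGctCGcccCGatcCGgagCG
Tmod1: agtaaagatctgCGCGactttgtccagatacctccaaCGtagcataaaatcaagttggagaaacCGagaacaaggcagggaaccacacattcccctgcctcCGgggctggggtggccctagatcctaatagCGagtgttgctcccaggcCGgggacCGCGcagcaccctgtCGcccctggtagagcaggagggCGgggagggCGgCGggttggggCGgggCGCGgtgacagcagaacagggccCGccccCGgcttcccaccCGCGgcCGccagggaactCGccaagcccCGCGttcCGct
Gfra1: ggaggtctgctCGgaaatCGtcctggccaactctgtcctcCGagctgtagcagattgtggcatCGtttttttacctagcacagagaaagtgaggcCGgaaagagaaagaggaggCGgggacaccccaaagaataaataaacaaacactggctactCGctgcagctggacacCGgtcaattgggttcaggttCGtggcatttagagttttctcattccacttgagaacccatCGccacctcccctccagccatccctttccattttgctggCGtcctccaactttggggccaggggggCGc

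Over all 20 promoters, 11 were touched by peaks of both control lists and 9 by a peak of 1 control list, although every one lay inside a region called in both. The median CpG observed over expected ratio was 0.613 in control-only regions, with a median of 16 CG and 60.8% G and C. In knockout-only regions the 164 promoters had 0.622, 17 CG and 62.7%. The 453 promoters in regions of all 4 lists had 0.715, 20 CG and 64.3%, and the 319 in regions of 1 list had 0.463, 10 CG and 57.3%. All 32851 promoters of the table had a median ratio of 0.384, 7 CG and 52.7%. The ratio in control-only regions thus lay above the table's median and close to that of knockout-only regions. Its 95% interval from the order of the 20 values, 0.430 to 0.849, also holds the medians of regions of all 4 lists and of 1 list. It was 0.428 without control replicate 2. No test was made of this, since promoters are not replicates and most control-only regions held none.

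The lists hold peak positions and widths only, with no heights or read numbers, so sequencing depth is unknown and a region without a call is not shown to lack the mark. In bulk chromatin, the mark in fewer cells and less of it per cell cannot be told apart. Knockout H3K27me3 lists held 11349 and 11446 peaks, against 6312 and 7203 in control lists, a 1.69-fold longer list on average, and 2.15 times the called bases. Every peak was at least 501 bp wide. The labels of the H3K27ac libraries name an H3K4me3 antibody; these libraries were taken by their title. H3K27ac peaks were found at the ends of 5 and 5 of 6 mESC marker genes in knockout lists and of 5 and 4 in control lists. Of 9 fibroblast markers 0 and 1 had one in knockout lists and 0 and 0 in control lists. Of 7 trophectoderm markers 3 and 2 had one in knockout lists, against 0 and 1 in control lists, and of 7 primitive endoderm markers 0 and 0 had one in knockout lists, against 1 and 0 in control lists. No marker of these 4 sets had a control-only H3K27me3 region at its ends. The Mettl14 knockout itself was not checked, since peaks do not show whether an exon is missing.

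The control-only regions were mostly narrow, as were the peaks of the control lists as a whole. Knockout lists had 0 called bases in them by the rule. Control replicate 1 had a median of 501 bp of called bases per region, an upper quartile of 769.5 bp and at most 2440 bp. Control replicate 2 had a median of 501 bp, an upper quartile of 741 bp and at most 3723 bp. The minimum width of 501 bp was all that was called in 55.2% of the regions in replicate 1 and in 57.5% in replicate 2. Of all peaks of these 2 lists, 62.0% and 63.2% had that width. Regions called in control replicate 1 or 2 alone had it at 81.5% and 82.3%, so narrowness is not particular to control-only regions. Both control lists had the minimum width at 81 regions (31.3%), both had more at 48 (18.5%), and both had over 1000 bp at 9. The wider call was in replicate 1 at 87 regions, in replicate 2 at 91, and the widths were equal at 81, so neither control library supplied the wider peaks as a rule. The control peaks of a region shared a median of 379 bp, or 67.3% of the smaller one, and 36 regions rested on fewer than 100 shared bases.

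**Figure D1:**
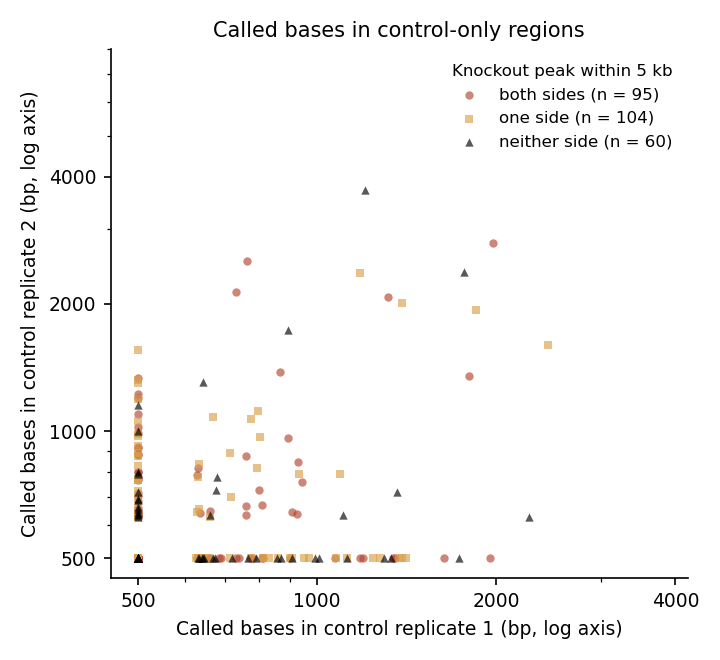
Called bases of each of the 259 control-only regions in control replicate 1 (x axis) and control replicate 2 (y axis), in bp on log axes, marked by whether a knockout H3K27me3 peak lay within 5 kb on both sides, one side or neither side. Many regions lie on the lines at 501 bp, the minimum width, and regions of all 3 kinds are spread over the whole range of widths.

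Regions called in all 4 lists were wider, with medians of 2056 and 2137 bp in knockout libraries and 1002 and 1015 bp in control libraries. Knockout-only regions had medians of 641 and 642.5 bp in the knockout lists. The control-only regions held 180.0 kb and 181.6 kb of called bases, which is 4.03% and 3.54% of all called bases of control replicates 1 and 2. Of the 1597 regions called in both control lists, the control-only ones made up 16.2%, while the knockout-only ones made up 37.5% of the 3229 regions called in both knockout lists. These shares follow from the calls that chose the members, and the lists differ in length. When each list was shortened to its 6312 widest peaks, with ties in width kept in the order of the deposited list, 289 regions were control-only and 671 knockout-only, and 239 of the 259 were still control-only. With ties kept in the reverse order, an alternative chosen after seeing the data, the counts were 308, 533 and 214. When only peaks wider than 501 bp were kept, 75 regions were control-only, 48 of them among the 259, against 738 knockout-only. Leaving a library out of the rule raised the count, to 497 and 526 without knockout replicates 1 and 2 and to 3718 and 3059 without control replicates 1 and 2.

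Most control-only regions had called H3K27me3 of knockout cells close beside them. The median distance to the nearest knockout peak, edge to edge, was 995 bp, with quartiles at 426.5 and 3916.5 bp. A knockout peak lay within 1 kb of 131 regions (50.6%), within 5 kb of 199 (76.8%) and within 50 kb of 236 (91.1%). Knockout peaks lay within 5 kb on both sides of 95 regions (36.7%), on one side of 104 (40.2%) and on neither side of 60 (23.2%). The nearest knockout peak within 5 kb had a median width of 645 bp, and 58 of these 199 peaks were wider than 1000 bp. Distances to the knockout lists taken singly were alike, with medians of 1938 bp for replicate 1 and 2101 bp for replicate 2.

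Regions called in 1 control list alone give a comparison with the same distance to knockout calls. The 6135 such regions had a median distance of 3420 bp, a knockout peak within 5 kb of 55.1% and on both sides of 18.9%. Control replicate 1 alone gave 3312 bp and control replicate 2 alone 3510 bp, so the values of both libraries were farther than the 995 bp of the regions that both called. In the other direction, knockout-only regions lay at a median of 2987.5 bp from the nearest control peak, with one within 5 kb of 57.4% and on both sides of 14.2%, in lists that were shorter. The distance enters the rule, which excludes an overlap, so it is given without a test. The median of 995 bp became 1818 and 1834.5 bp without knockout replicates 1 and 2, and 2996 and 2632 bp without control replicates 1 and 2.

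**Figure D2:**
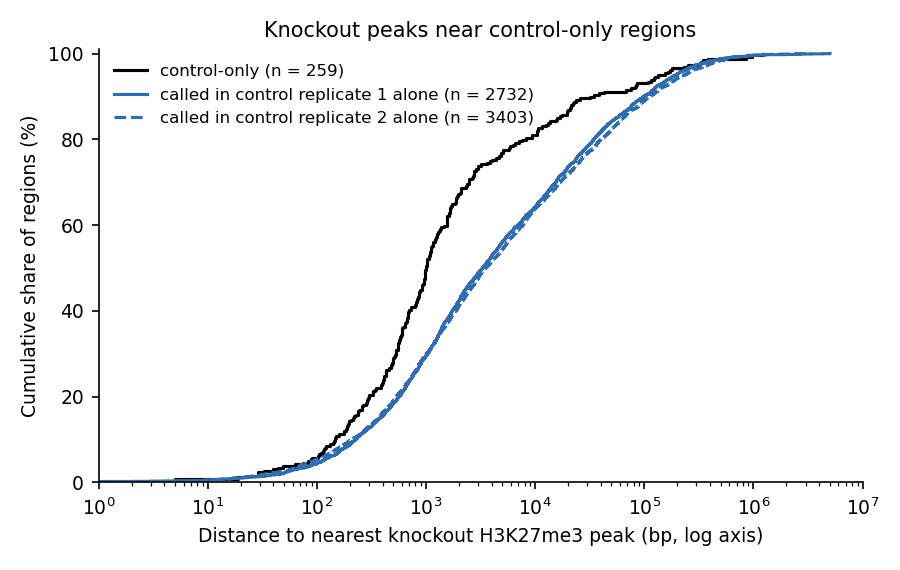
Cumulative share of regions (y axis, percent) by distance to the nearest knockout H3K27me3 peak (x axis, bp, log scale), for the 259 control-only regions and for regions called in control replicate 1 alone or control replicate 2 alone. The curve of the control-only regions lies to the left, with a median of 995 bp against 3312 and 3510 bp.

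In the 5 kb on either side of the control-only regions, knockout lists held a mean of 942 and 960 bp of called H3K27me3 per region, against 486 and 438 bp in control lists. The groups do not overlap, and their means were 951 ± 12.1 bp in knockout and 462 ± 34.1 bp in control lists (SD, n = 2 each), a 2.06-fold difference. That is close to the 2.15-fold difference of the whole lists, and the flanks of knockout-only regions gave 2.01-fold. More bases were called in knockout than in control lists around 174 regions, fewer around 38, and equally many around 47. No matching counts are given here for other regions. The larger extent of knockout calls in the flanks is thus not particular to control-only regions, since the whole lists differed by about as much. The regions themselves had a call in controls alone by the rule.

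At the edge of the rule, the control-only region closest to a knockout peak was at Cd44, the hyaluronan receptor gene, at chr2:102899787-102900838. Control replicate 1 called 655 bp there and replicate 2 called 501 bp, and a knockout peak began 2 bp away. Of the 259 regions, 15 had a knockout peak less than 100 bp away. Just outside the rule, a region at chr4:120714709-120716509 had 501 bp in each control list and 883 bp in knockout replicate 1, which shared 3 bp with a control peak. Of the 459 regions called in both control lists and 1 knockout list, 9 shared less than 100 bp with the knockout peak. 

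Of the control-only regions, 92 (35.5%, 95% exact Clopper-Pearson interval 29.7 to 41.7%, for counting error only) touched a gene end, meaning the 1 kb on either side of an end of a protein-coding gene. A further 92 (35.5%) lay in gene bodies and 75 (29.0%) between genes. Knockout-only regions gave 36.0%, 37.4% and 26.5% for gene ends, bodies and intergenic sequence. Regions in all 4 lists gave 69.1%, 21.0% and 9.90%, and regions of 1 list gave 16.7%, 41.0% and 42.3%. Over all 25113 merged regions the shares were 23.6%, 38.9% and 37.5%. By this measure the control-only shares lay close to the knockout-only ones, and between those of regions of all 4 lists and of 1 list. Within 1 kb of annotated starts, they lay further apart, at 25.5% of control-only regions (interval 20.3 to 31.2%) and 33.6% of knockout-only regions (30.9 to 36.3%). Of all merged regions, 19.6% lay there. Since the gene table has no strand, an end may be a start or a finish of transcription. The 35.5% became 16.4 and 17.6% when control replicate 1 or 2 was left out, which lets in regions of 1 control list.

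**Figure D3:**
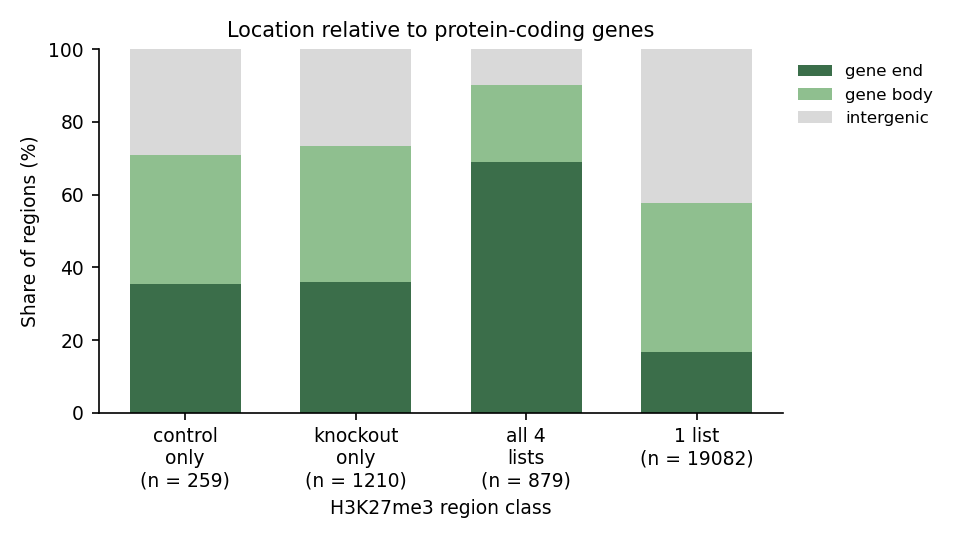
Share of regions (y axis, percent) at gene ends, in gene bodies and between genes for control-only, knockout-only, all-4-list and 1-list H3K27me3 regions. The gene-end share was 35.5% for control-only and 36.0% for knockout-only regions, against 69.1% for regions in all 4 lists and 16.7% for those in 1 list.

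With annotated starts alone, 22 control-only regions (8.49%) covered a start, against 13.7% of knockout-only regions, 40.4% of regions in all 4 lists and 3.04% of regions in 1 list. The median distance to the nearest start was 4829 bp for control-only regions, 4142 bp for knockout-only regions, 344 bp for regions in all 4 lists and 10152 bp for regions in 1 list. Distance to a knockout peak varied little with location, with medians of 936.5 bp at gene ends, 959.5 bp in gene bodies and 1238 bp between genes. By chromosome, control-only regions made up between 0.508% of the regions of chromosome 8 and 1.93% of those of chromosome 17. Chromosome X had 1 of its 156 regions among them, at Nhs.

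The 92 regions at gene ends touched 96 protein-coding genes, 0.438% of the 21900 in the annotation. Knockout-only regions touched 461 genes (2.11%) and regions of all 4 lists 659 (3.01%). A knockout H3K27me3 peak lay elsewhere in the end windows of 57 of the 96 genes and was absent from those of 39. The matching share over all genes is not given here, so the 57 cannot be set beside it. A region called in all 4 lists was also present at 8 of the 96, to be read beside the 3.01% of all genes. Among the 71 genes with an annotated start, the region covered the start of 15. The 96 genes became 194 and 235 without knockout replicates 1 and 2, and 635 and 553 without control replicates 1 and 2.

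Homeobox genes, which encode transcription factors that pattern the embryo, gave the largest count. Of 153 on the list, 10 (6.54%) had a control-only region at an end, against 0.438% of all genes. A knockout-only region lay at 8 (5.23%) and a region of all 4 lists at 63 (41.2%), against 2.11% and 3.01% of all genes. The 10 are Alx4, Dlx5, Hoxb9, Lhx9, Meis2, Nkx2-5, Nkx6-1, Pax3, Pax6 and Six2. Of these, 8 also had a knockout peak in their end windows and 1 a region of all 4 lists. None of their control-only regions was found to cover an annotated start. The starts of Lhx9, Meis2, Nkx2-5, Nkx6-1, Pax6 and Six2 were not covered, and Alx4, Dlx5, Hoxb9 and Pax3 had no start annotated. The regions are therefore not shown to lie on the promoters of these genes. Pdx1, Otp, Shox2 and Gsc2 are homeobox genes that the list does not hold, and their ends had control-only regions too; the last 3 were singled out after their calls were seen.

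Hoxb9, a gene of the HoxB cluster that patterns the trunk, had the largest region by the smaller of its control widths, at chr11:96272072-96274857 inside the gene span of 96271330 to 96276595. Knockout replicates had 0 and 0 bp there, and control replicates 1973 and 2786 bp. Toward the higher coordinates, knockout replicate 1 had peaks of 3077 and 6567 bp and knockout replicate 2 peaks of 645, 3955 and 4234 bp, the nearest 1016 bp away. The 5 kb flanks held 3578 and 3159 bp of knockout calls, against 1002 and 1205 bp of control calls. A 501 bp H3K4me3 peak of knockout replicate 1, at 96271603 to 96272103, overlapped only the lower edge of the region. Knockout replicate 2 had no H3K4me3 peak there.

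Nkx2-5, a cardiac transcription factor gene, had a region at chr17:26842732-26845037 with 0 and 0 bp in knockout lists and 1803 and 1348 bp in control lists. Knockout peaks lay 117 bp below it and 160 bp above it, and the lower one was 2722 bp wide. The region ran over the higher end of the gene span, and the annotated start was not covered. Its flanks held 3399 and 2368 bp of knockout calls, against 2759 and 2144 bp of control calls, so H3K27me3 was called in the flanks in all 4 libraries.

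Nkx6-1, which acts in pancreatic beta cells and the ventral neural tube, had a pair of control-only regions, one near each end of the gene span. At chr5:101665666-101667740, knockout lists had 0 and 0 bp and control lists 1314 and 2075 bp, with the nearest knockout peak 476 bp away. At chr5:101660048-101660689, control lists had 501 and 631 bp, with a knockout peak 596 bp away. Pdx1, a regulator of pancreas formation, had 893 and 961 bp in control lists, with only 124 bp shared, and a knockout peak 267 bp away. Pax3, a factor of muscle and neural crest precursors, had 1953 and 501 bp in control lists, and Meis2 1733 and 501 bp, so 1 control library called much more than the other. Dlx5, which acts in forebrain and skeletal development, had 1095 and 794 bp, with a knockout peak 822 bp away, and Alx4 and Lhx9 had 501 bp in each control list, with knockout peaks 686 and 404 bp away.

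**Figure D4:**
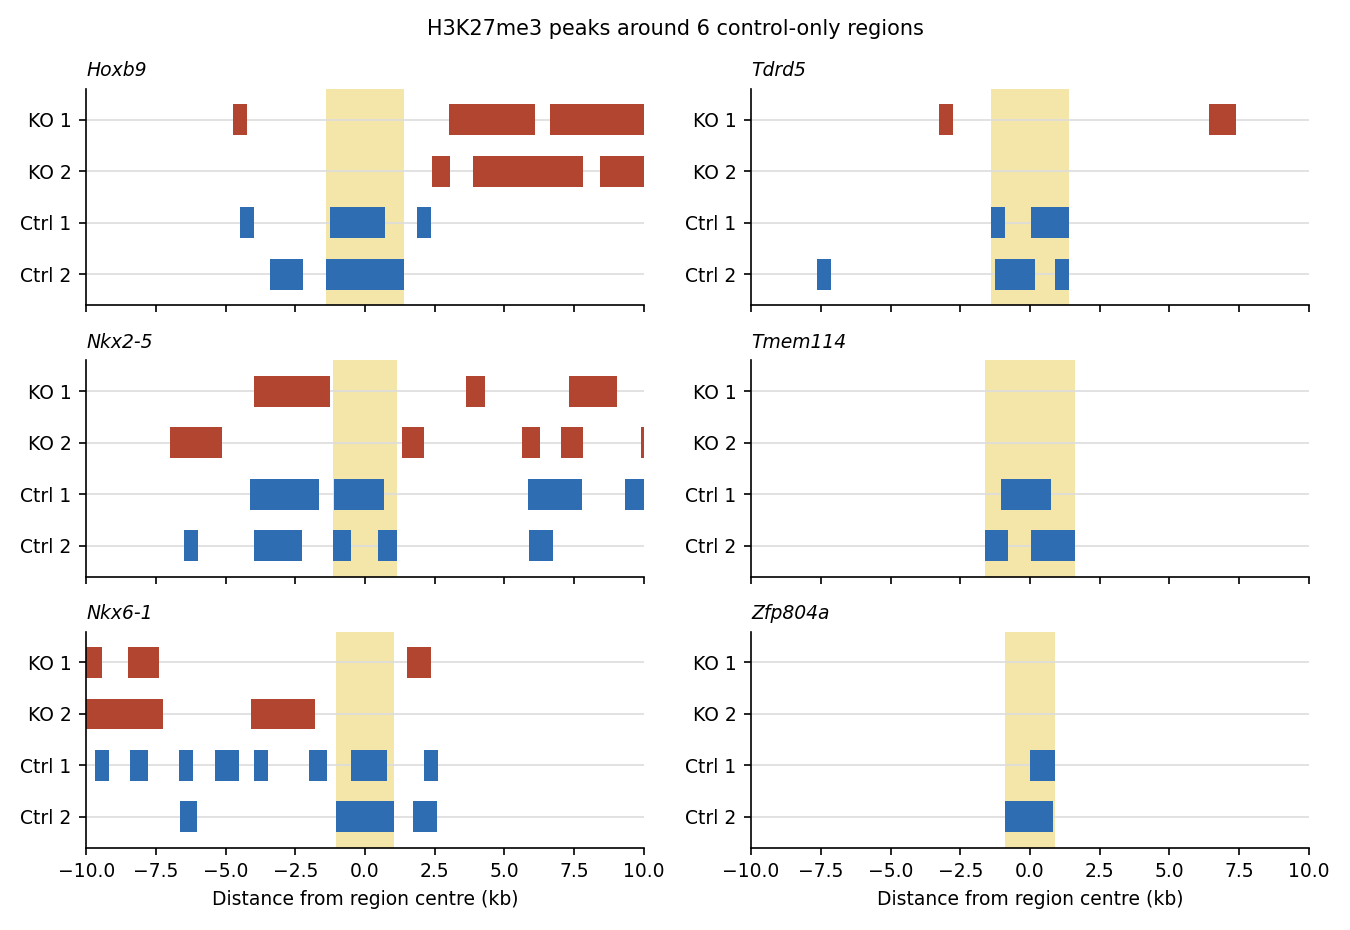
H3K27me3 peaks of the knockout and control libraries within 10 kb of the centre of 6 control-only regions, drawn to scale with the distance from the centre in kb on the x axis and knockout libraries above control libraries; peaks that run past the window are cut there. At Hoxb9, Nkx2-5 and Nkx6-1 knockout peaks flank the region, and at Tmem114 no knockout peak lies in the window.

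Among other developmental regulators, 2 of 188 transcription factor genes (1.06%) had a control-only region, Bhlhe22 and Foxd1, against 0.438% of all genes. A knockout-only region lay at 15 of the 188 (7.98%), against 2.11% of all genes. Foxd1, a forkhead factor of the kidney stroma, had 865 and 1380 bp in control lists, with a knockout peak 403 bp away. Its promoter lay under the peak of control replicate 2 alone. Bhlhe22, a neural basic helix-loop-helix factor, had 902 and 501 bp. Dmrt2, a DM-domain factor of the somites, had 760 and 667 bp, with a knockout peak 1258 bp away, and Zfp521, a zinc-finger factor, 714 and 886 bp, with one 1938 bp away. Zfp521 was the only one of 424 genes (0.236%) on the Zfp and Zkscan list, a share below the 0.438% of all genes.

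Receptor, channel and surface protein lists gave 1 to 3 members each, to be read beside the 0.438% over all genes. Of 192 developmental signals and receptors 1 (0.521%) had a control-only region, the netrin receptor gene Unc5a, with 633 and 501 bp and a knockout peak 295 bp away. Of 193 ion channel genes 3 (1.55%) had one. A knockout-only region lay at 10 of them (5.18%), against 2.11% of all genes. Kcna6, a voltage-gated potassium channel, had 796 and 1114 bp, and a knockout peak of 3349 bp lay 384 bp away. Its promoter lay under the peak of control replicate 2 alone. Kcnj5, an inward rectifier, had 501 and 772 bp, with a knockout peak 1333 bp away.

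Of 104 neurotransmitter receptor genes 2 (1.92%) had control-only regions. Chrm2, a muscarinic acetylcholine receptor, and Drd5, a dopamine receptor, had knockout peaks 131 and 241 bp away. Lgr5, a receptor for R-spondins and marker of intestinal stem cells, had a pair of regions at its end. One had 761 and 874 bp in control lists and the other 1196 and 501 bp, with knockout peaks 818 and 1125 bp away. Avpr1a, a vasopressin receptor, had 676 and 725 bp and no knockout peak within 348589 bp. Pcdhgb7 was the 1 gene of 92 cadherins and clustered protocadherins, with 907 and 645 bp, but its span overlaps other genes of the cluster, so the region belongs to no single one.

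Among enzymes and structural genes, Hs3st6, a heparan sulfate sulfotransferase, had 1204 and 3723 bp in control lists at chr17:24750967-24754689, and the nearest knockout peak was 13692 bp away. Tdrd5 had 1852 and 1936 bp, as a pair of peaks in each control list, with a knockout peak of 501 bp 1376 bp away. Tmod1 had 2440 and 1595 bp, with one 2497 bp away. Car4, a membrane-anchored carbonic anhydrase, had 802 and 968 bp, and Nudt18, a nudix hydrolase, 798 and 725 bp. Gja3 had 792 and 819 bp over its start, with the nearest knockout peak 960 bp away. Cldn6 and Cldn9, adjacent genes of tight-junction claudins, shared 1 region of 501 bp in each control list. They were the 2 of 235 cytoskeleton, matrix and adhesion genes (0.851%), against 0.438% of all genes.

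Several lists held no control-only gene, which at 0.438% over all genes says little for the short lists. These were solute carriers (0 of 389, with 10 knockout-only), olfactory and vomeronasal receptors (0 of 1480, with 0), pluripotency genes (0 of 25, with 2), germline genes (0 of 22, with 0), imprinted genes (0 of 30, with 2) and housekeeping genes (0 of 20, with 0). The m6A machinery had 0 of 20 in either class, and the Polycomb genes and H3K27 demethylases 0 of 31, with 1 knockout-only. Immune surface genes had 2 of 315, Cd44 and Cd109, with 4 knockout-only. The feeder list had 0 of 12, with 0 knockout-only, and the trophectoderm and primitive endoderm lists each had 0 of 11, with 1 knockout-only. The knockout-only counts are to be read beside the 2.11% of all genes.

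Away from gene ends, the widest regions lay in or near genes of several kinds. Shank3, a scaffold of the postsynaptic density, held a pair in its body, at chr15:89497525-89499895 with 1183 and 2371 bp in control lists and at chr15:89556742-89557674 with 933 and 792 bp. Knockout peaks lay 983 and 302 bp from them. Pdgfb, a growth factor gene, had 764 and 2521 bp in its body, and Pitx1, a hindlimb homeobox factor, 732 and 2135 bp, with knockout peaks 349 and 40 bp away. A region 10116 bp from Hes5, a Notch target gene, had 928 and 845 bp and a knockout peak 5 bp away. A region 84814 bp from Sox9, a factor of cartilage and testis, had 775 and 1067 bp and a knockout peak 1887 bp away.

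Among the remaining wide intergenic regions, that near Rrp1, a ribosomal RNA processing gene, had 1387 and 2012 bp and lay 9104 bp from the gene, with a knockout peak 1308 bp away. That near Scarf2, a scavenger receptor gene, had 945 and 757 bp, and that near Phyhip 1361 and 717 bp, with knockout peaks 1541 and 10300 bp away. The hairpin of Mir208a, a microRNA of heart muscle, lay inside a region at chr14:54948716-54949755 that had 1008 and 501 bp in control lists, with the nearest knockout peak 10659 bp away.

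At 23 of the 259 regions no knockout H3K27me3 peak lay within 50 kb, so these control calls stood alone. Such calls were less frequent here than among regions called in 1 control list. A knockout peak lay within 50 kb of 91.1% of control-only regions and of 83.2% of regions called in 1 control list. A control peak lay within 50 kb of 81.0% of knockout-only regions, but control lists were shorter, so this share is not measured on like terms. Of the 23 regions, that of Tmem114 was the widest, at chr16:8423860-8427059. Knockout lists had 0 and 0 bp there and control lists 1763 and 2377 bp, the nearest knockout peak being 86319 bp away. No control peak was called in its 5 kb flanks either. Zfp804a had 893 and 1738 bp at chr2:82052237-82054022, with the nearest knockout peak 333196 bp away. Avpr1a was also among the 23. The farthest from any knockout peak lay at Ppp1r14c, a phosphatase inhibitor subunit gene, with 501 bp in each control list and a knockout peak 1231587 bp away. Ppp1r14c was named for its distance, after its values were seen.

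H3K4me3 and H3K27ac were not used to choose the regions. H3K4me3 peaks overlapped 4 and 2 of the 259 regions in knockout lists, against 0 and 2 in control lists. A count of 0 of 259 allows a share of up to 1.16%, taken as 3 over 259. This limit is for counting error within that 1 list only and treats its regions as independent. The groups touch at 2, and the shares of 1.16 ± 0.546% in knockout and 0.386 ± 0.546% in control lists (SD, n = 2 each) differed by 0.772 percentage points (two-sided exact permutation test over lists, p = 0.667). That difference turned to -0.386 points with the H3K4me3 lists cut to equal length. It was 2.66 points without knockout and 0.458 points without control H3K27me3 replicate 2, and 0.386 to 1.16 points with 1 H3K4me3 list left out. With 2 lists against 2 the smallest p this test allows is 0.333. At all other merged regions, H3K4me3 was on 2.60 ± 0.119% in knockout and 0.364 ± 0.00854% in control lists, a difference of 2.23 points (exact permutation p = 0.333). The difference at control-only regions thus deviated from that elsewhere by -1.46 points (exact permutation p = 0.333). This value turned to 0.482 points when knockout H3K27me3 replicate 2 was left out of the rule, which makes 526 regions control-only, and to 0.931 points when peaks within 1 kb were counted. It was -2.23 points without control H3K27me3 replicate 2.

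Within 1 kb of a control-only region, H3K4me3 was called at 21 and 10 regions in knockout lists, against 0 and 2 in control lists. The groups do not overlap, and the shares were 5.98 ± 3.00% in knockout and 0.386 ± 0.546% in control lists (SD, n = 2 each, exact permutation p = 0.333). At all other regions the shares within 1 kb were 5.46 ± 0.316% in knockout and 0.791 ± 0.0142% in control lists, and knockout H3K4me3 lists were longer, with 8131 and 8055 peaks, against 2859 and 2431. No control-only region had an overlapping H3K4me3 peak in both knockout lists and no control list, a pattern found at 0.94% of all merged regions. Within 1 kb, 4 of the 259 had that pattern, against 2.13% of all regions, and these lay at Hipk3, Mapkapk2, Ppm1h and Siah2, named after their calls were seen. Hipk3 and Mapkapk2 encode kinases, Ppm1h a phosphatase and Siah2 a ubiquitin ligase.

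H3K27ac peaks overlapped 1 and 2 of the 259 regions in knockout lists, against 2 and 4 in control lists, so the groups touch at 2. The shares were 0.579 ± 0.273% in knockout and 1.16 ± 0.546% in control lists (SD, n = 2 each), a difference of -0.579 points (exact permutation p = 0.667). At all other regions they were 1.13 ± 0.0142% in knockout and 0.799 ± 0.230% in control lists, and the difference between the differences was -0.913 points (exact permutation p = 0.333). No control-only region had an H3K27ac peak in both knockout lists and no control list, against 0.111% of all regions, and none within 1 kb, against 0.315%. The reverse, both control lists and no knockout list, was also found at 0 of the 259, against 0.0319% of all regions. Each share rests on 4 regions or fewer, and the difference turned to 0.667 points when only H3K27me3 peaks wider than 501 bp were used. With 1 H3K27me3 list left out it was -0.905 to -0.190 points, the ends coming without knockout replicates 1 and 2, and -0.377 points without control replicate 1. With 1 H3K27ac list left out it was -0.965 to -0.193 points, the ends coming without control replicates 1 and 2. The difference between the differences was -0.439 points without knockout H3K27me3 replicate 2, -1.46 and -0.364 points without H3K27ac control replicates 1 and 2, and -0.148 points with the wider peaks.

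**Figure D5:**
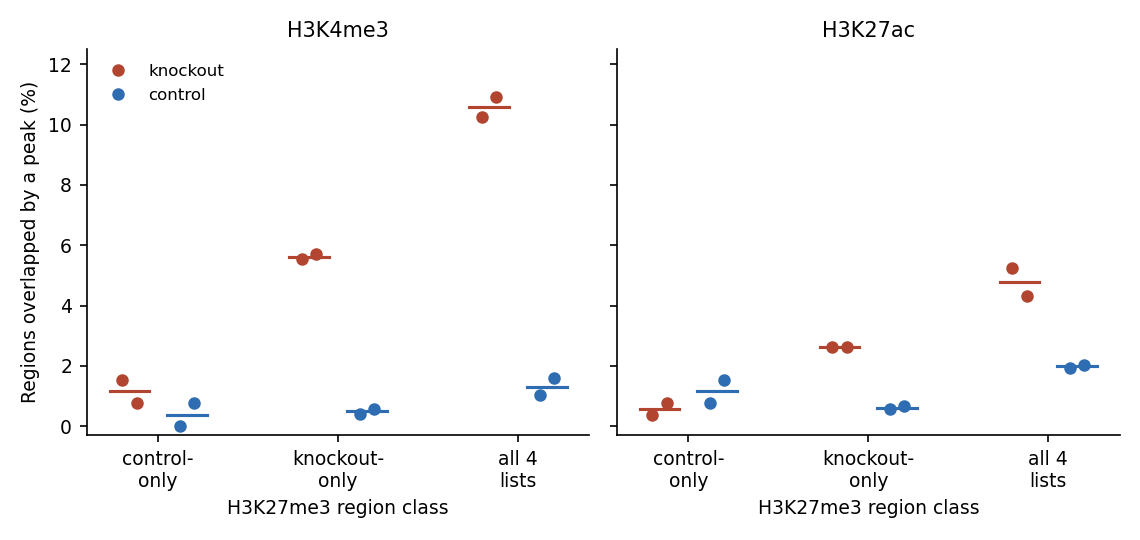
Share of regions with an overlapping H3K4me3 or H3K27ac peak (y axis, percent) in each knockout and control library, for control-only regions and the other classes of H3K27me3 region, knockout left of control; points are libraries and lines their means. At control-only regions knockout and control libraries overlap for both marks, while at knockout-only regions the H3K4me3 shares averaged 5.62% in knockout and 0.496% in control libraries.

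Both marks together were absent from most of the set. In none of the 8 lists was H3K4me3 or H3K27ac called at 242 of the 259 regions (93.4%), the same share as over all merged regions (93.4%), while regions called in all 4 H3K27me3 lists had neither mark at 75.5%. H3K4me3 in any list lay on 8 of the 259 control-only regions, against 1115 of all 25113 merged regions (4.44%). H3K27ac in any list lay on 9 of the 259, against 835 of all 25113 (3.32%). Knockout-only regions differed from control-only regions in the share with an H3K4me3 call. It was 5.62% in knockout and 0.496% in control lists at knockout-only regions, against 1.16% and 0.386% at control-only regions. Regions of all 4 lists had 10.6% and 1.31%. Knockout H3K4me3 lists were longer, with 8131 and 8055 peaks, against 2859 and 2431. For H3K27ac the shares were 2.64% in knockout and 0.620% in control lists at knockout-only regions, and 4.78% and 1.99% at regions of all 4 lists. These differences between classes were not tested.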

How the data were processed

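Peak lists of H3K27me3, H3K4me3 and H3K27ac from Mettl14 knockout and control mESCs were used, 2 libraries per mark and group, grouped by sample title. The submitters' processing notes name build mm10 and the tools Bowtie2 2.4.1, Trimmomatic 0.38, HOMER, SAMtools and CASAVA. Not given in the sources used here are the peak caller, its settings, and the use of inputs and of the spike-in chromatin in the labels' protocols. Peaks were deposited per library. The deposited score is 1 for every peak and was not used, so widths and positions are the only measurements. The lists give no depth, and no interval that needs it is printed.

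Peaks were merged with Python 3.11.15 and pandas 2.3.3 at 1 bp of overlap, tested on simulated lists. Gene spans and promoters came from RefSeq, GRCm38.p6. Coordinates are 1-based. The gene table has no strand, so windows of 1 kb were set around both gene ends, a departure from the planned start windows. The promoter table covers 17492 of 21900 protein-coding genes. Library shares were compared by exact two-sided permutation (numpy 2.4.6), and binomial intervals were made with scipy 1.17.1. Genes with official symbols were named by a rule: the 20 control-only genes with the largest smaller control width, the genes at the 10 widest regions away from gene ends, up to 4 genes per list and any gene gaining or losing a second mark in all its lists, of which there were 0. One gene that the rule names is not reported here. The members and the 20 gene lists were chosen with earlier results of these data known. Alternatives changed 1 choice at a time: list length, minimum width, merging distance, windows, overlap rules and libraries left out.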

Additional observations from a re-analysis of the deposited data

How the results depend on the processing

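The set of control-only regions rests on both members of each pair of lists. With 1 H3K27me3 list left out, the rule gave 497 to 3718 regions, 194 to 635 genes, gene-end shares of 16.4 to 42.2%, median distances to a knockout peak of 1818 to 2996 bp and median CpG ratios of 0.428 to 0.613. The 3718 regions came without control replicate 1 and 3059 without control replicate 2, and knockout replicates 1 and 2 left out gave 497 and 526. Requiring no knockout peak within 5 kb left 60 regions and 20 genes. Peaks wider than the minimum width gave 75 regions, 38 genes, a gene-end share of 48.0% and a distance of 2315 bp. Windows of 2500 bp gave 148 genes and 50.2%, windows of 500 bp gave 63 and 23.2%, and annotated starts, a choice made after seeing the data, gave 61 and 25.5%. The distance was 1571 bp with lists of equal length and 2084.5 bp with ties in width kept in reverse order there (added after seeing the data). It was 5390 bp with peaks within 1 kb merged, which by construction leaves no control-only region within 1 kb of a knockout peak.

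The differences in second marks, knockout minus control, have few regions behind them. H3K4me3 at control-only regions turned to -0.386 points with its lists at equal length and to -0.193 points with at least 50% of the region covered, and H3K27ac turned to 0.667 points for peaks wider than the minimum. Against other regions, the H3K4me3 difference turned to 0.931 points within 1 kb and to 0.482 points without knockout H3K27me3 replicate 2, in a range of -2.23 to 0.482 over left-out H3K27me3 lists, and of -1.93 to -0.988 over left-out H3K4me3 lists, the last added after seeing the data. The cause was not tested. Replicate numbers did not pair the libraries (correlations of deviations of 0.0243 for H3K27me3, -0.0378 for H3K4me3 and 0.0240 for H3K27ac). With the replicate block the differences of 0.772, -1.46, -0.579 and -0.913 points were the same by construction. The smallest p an exact permutation test allows is 0.5 with the block and 0.333 without it. No result could pass a threshold of 0.05 either way, so the block could not change a call. No read depth is known, so a missing call may lie just under a threshold.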
